A study of Mus musculus with 4 samples.

Results

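The basement membrane is the thin sheet of matrix on which epithelia, vessels, muscle and nerve rest, and 10 genes that code for its main building blocks were followed through 4 RNA-seq libraries of mouse embryonic fibroblasts (MEF). They are the collagen genes *Col4a1*, *Col4a2*, *Col4a5* and *Col18a1*, the laminin chain genes *Lama4*, *Lamb1* and *Lamc1*, the nidogen genes *Nid1* and *Nid2*, and *Hspg2*, which codes for perlecan. The genes were chosen by name for what their proteins build, and each was represented by the annotated transcript with the longest gene body on its strand. All 10 were found, among 24933 named genes, and all 10 reached at least 1 RPKM in a library, as 10679 protein-coding genes did. RPKM counts the reads on a transcript relative to its length and to the depth of its library, so that levels of different genes can be set side by side.

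The cells were immortalized MEF of the strain C57BL/6, taken at embryonic day 15.5 from what was left of the embryos once the inner organs, head, limbs and tail had been cut away. The libraries labelled *Hmga2*+/+ Ctrl and *Hmga2*+/+ TGFB1 came from wild type cells, and those labelled *Hmga2*-/- Ctrl and *Hmga2*-/- TGFB1 came from cells that lack *Hmga2*, a chromatin protein of embryonic tissues. All cells were first kept overnight in medium with 1% serum, and then received either water (Ctrl) or 10 ng per ml of human recombinant TGFB1, a cytokine that drives matrix production by fibroblasts, for 24 h. Each condition has 1 library, so no difference below has a replicate check, no p-value is given, and a difference between genotypes cannot be told apart from a difference between cell lines. The libraries held between 56140000 and 57290000 mapped reads, derived from the steps in the deposited RPKM. Intervals are 95% intervals for counting error only, in reads that carry no molecular identifiers. In bulk RNA, fewer cells that express a gene and less RNA per cell cannot be told apart.

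Basement membranes are built from separate networks. Laminins are trimers of an α, a β and a γ chain, which assemble at the cell surface by binding integrins and dystroglycan. Collagen IV chains form trimers that join into a covalent mesh, most widely with *Col4a1* and *Col4a2* products in the same trimer. Nidogens and perlecan link the laminin and collagen sheets, and collagen XVIII is a heparan sulfate proteoglycan of the membrane zone whose C-terminal fragment is endostatin. Fibroblasts are known to supply several of these components to the membranes of neighbouring cell layers, and TGFB1 is known to raise the output of many matrix genes.

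After TGFB1, the basement membrane genes did not move as a block. *Lamb1*, the β1 chain of laminin, rose 2.21-fold in *Hmga2*+/+ MEF and 2.53-fold in *Hmga2*-/- MEF, and *Col18a1* rose 1.77-fold and 1.79-fold. *Col4a5* fell 3.37-fold and 3.44-fold, *Nid2* fell 2.52-fold and 2.11-fold, and *Lama4*, the α4 chain of laminin, fell 1.64-fold and 1.78-fold. The 5 others stayed within 1.5-fold, the limit used here and in the methods of the study. Thus 2 of 10 genes were higher and 3 of 10 were lower in each genotype. Among all 10679 genes, 11.5% were higher and 16.6% were lower after TGFB1 in *Hmga2*+/+ MEF. In *Hmga2*-/- MEF, 13.1% were higher and 15.0% were lower. The median log2 change of the 10 genes was -0.05 in *Hmga2*+/+ MEF, beside -0.05 over all genes, and 0.08 in *Hmga2*-/- MEF, beside 0.01.

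**Figure D1:**
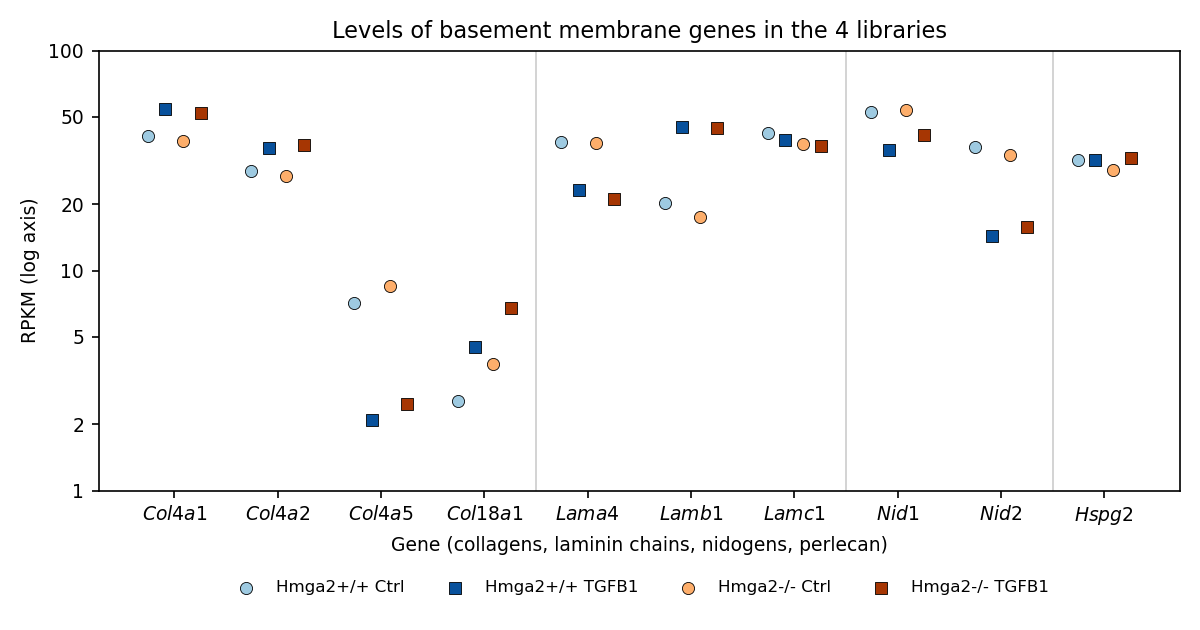
Level of each of the 10 genes in each library, in RPKM on a log axis, with circles for Ctrl, squares for TGFB1, blue for *Hmga2*+/+ and orange to red for *Hmga2*-/-; grey lines part the collagens, laminin chains, nidogens and perlecan. The squares lie above the circles for *Lamb1* and *Col18a1* and below them for *Col4a5*, *Lama4*, *Nid1* and *Nid2* in both genotypes.

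Promoter sequence of the genes is shown for the largest rise (*Lamb1*), for the other rise (*Col18a1*) and for the largest fall (*Col4a5*), since these 3 genes carry the contrast within the group. Each is the 250 bases before the annotated start, from RefSeq, build GRCm38.p6, read 5′ to 3′ on the strand of the gene. Capitals mark matches on either strand to 3 motifs. The SMAD element was searched as CAGAC. The GC box was searched as GGGCGG, and the CCAAT box by the letters of its name.
Lamb1, chr12:31265043-31265292, plus strand: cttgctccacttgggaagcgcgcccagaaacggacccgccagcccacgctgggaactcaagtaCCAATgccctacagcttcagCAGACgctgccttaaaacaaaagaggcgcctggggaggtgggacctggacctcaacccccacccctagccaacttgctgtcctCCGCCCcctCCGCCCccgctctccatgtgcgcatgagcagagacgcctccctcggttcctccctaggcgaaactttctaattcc
Col18a1, chr10:77166531-77166780, minus strand: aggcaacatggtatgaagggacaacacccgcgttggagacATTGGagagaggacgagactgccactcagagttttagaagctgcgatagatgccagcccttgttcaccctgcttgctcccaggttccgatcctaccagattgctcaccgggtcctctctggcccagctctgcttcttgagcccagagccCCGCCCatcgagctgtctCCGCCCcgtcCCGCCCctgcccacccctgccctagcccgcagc
Col4a5, chrX:141475169-141475418, plus strand: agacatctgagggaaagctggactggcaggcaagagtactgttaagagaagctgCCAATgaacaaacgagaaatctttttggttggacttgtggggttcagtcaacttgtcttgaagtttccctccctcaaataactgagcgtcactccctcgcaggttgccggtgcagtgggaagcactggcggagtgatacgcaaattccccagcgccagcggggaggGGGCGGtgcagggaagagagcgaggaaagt

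All 3 windows held a CCAAT match and at least 1 GC box match, and *Lamb1* also held the letters CAGAC once. Over 32851 RefSeq promoters of the same length, 42.2% held CAGAC, 32.7% GGGCGG and 33.8% CCAAT on either strand. Neither TATAAA nor AATATT, both searched on either strand, was present in the windows of these 3 genes, and 12.4% and 6.17% of all promoters held them. Their G and C content was 62.0% for *Lamb1*, 62.0% for *Col18a1* and 54.0% for *Col4a5*, beside a median of 52.4% over all promoters. Of the 10 genes, 7 had a sequence in the table, which were the 3 above, *Col4a1*, *Col4a2*, *Nid1* and *Hspg2*. *Lama4*, *Lamc1* and *Nid2* were the others. The letters describe these windows and mark no bound site.

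Of the chains of the common collagen IV trimer, *Col4a1* held place 1, 2 or 3 among the levels of the 10 genes in every library, and *Col4a2* held place 7 in Ctrl and place 4 after TGFB1. *Col4a1* (chr8:11198423-11312826, minus strand, mm10) stood at 40.9 RPKM in *Hmga2*+/+ Ctrl and 54.4 RPKM in *Hmga2*+/+ TGFB1, and at 38.7 RPKM and 51.9 RPKM in the corresponding *Hmga2*-/- libraries. *Col4a2* (chr8:11312805-11449287, plus strand) stood at 28.4, 36.3, 27.1 and 37.3 RPKM in the same order. Both TGFB1 libraries were above both Ctrl libraries for each gene, by less than 1.5-fold. The log2 change of *Col4a1* was 0.41 [0.38, 0.44] in *Hmga2*+/+ and 0.42 [0.39, 0.45] in *Hmga2*-/- MEF. That of *Col4a2* was 0.35 [0.32, 0.39] and 0.46 [0.43, 0.50]. Of the other 10678 genes, 17.7% changed upwards in *Hmga2*+/+ MEF as much as *Col4a1* or more, and 20.8% as much as *Col4a2* or more.

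These 2 genes are neighbours that are read in opposite directions, and the ratio of their levels stayed between 1.39 and 1.498. The ratio of *Col4a1* to *Col4a2* RPKM was 1.438 in *Hmga2*+/+ Ctrl, 1.498 [1.47, 1.53] in *Hmga2*+/+ TGFB1, 1.43 in *Hmga2*-/- Ctrl and 1.39 [1.36, 1.42] in *Hmga2*-/- TGFB1. The intervals of the 2 TGFB1 libraries did not overlap. Their sum went from 69.3 to 90.6 RPKM in *Hmga2*+/+ MEF and from 65.8 to 89.2 RPKM in *Hmga2*-/- MEF. The annotated 5′ ends overlap by 22 bases, shown because both genes start within them.
Col4a1 and Col4a2 start overlap, chr8:11312805-11312826, plus strand, GRCm38.p6: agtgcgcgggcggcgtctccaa
In the 250 bases before each start, *Col4a1* held 1 CCAAT match and no GC box match, and *Col4a2* held 1 CAGAC, 2 GC box and 1 CCAAT matches. The 22 shared bases, which lie outside both windows, also hold the GC box letters GGGCGG. Over the 4 libraries, the profile of *Col4a2* was the 76th nearest to that of *Col4a1* among 10678 genes, by the root mean square distance of log2 RPKM after each gene was centred on its own mean. By the same distance *Col4a1* was the 132nd nearest to *Col4a2*.

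*Col4a5*, which codes for a collagen IV chain of specialised membranes such as those of the kidney filter, went the other way. It stood at 7.10 RPKM in *Hmga2*+/+ Ctrl, 2.105 RPKM in *Hmga2*+/+ TGFB1, 8.53 RPKM in *Hmga2*-/- Ctrl and 2.48 RPKM in *Hmga2*-/- TGFB1, from 2544, 770, 3084 and 902 reads. The TGFB1 libraries lay below the Ctrl libraries in both genotypes. The log2 change was -1.75 [-1.87, -1.64] in *Hmga2*+/+ MEF and -1.78 [-1.89, -1.67] in *Hmga2*-/- MEF, and 1.71% and 1.94% of the other genes changed downwards as much. Relative to *Col4a1*, the level of *Col4a5* went from 0.174 to 0.0387 in *Hmga2*+/+ and from 0.220 to 0.0478 in *Hmga2*-/- MEF.

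*Col4a5* (chrX:141475419-141689235, plus strand) also has a partner that is read away from it. *Col4a6* starts 1342 bases away on the minus strand, and stood at 0.223, 0.075, 0.339 and 0.107 RPKM, from 82, 28, 126 and 40 reads. *Col4a6* was below 1 RPKM in every library, and TGFB1 over Ctrl gave a log2 change of -1.57 [-2.25, -0.94] in *Hmga2*+/+ MEF and of -1.66 [-2.22, -1.14] in *Hmga2*-/- MEF. *Col4a3* and *Col4a4*, whose products share a trimer with the *Col4a5* chain in the kidney, did not pass 0.03 RPKM in any library. The gene whose profile was nearest to that of *Col4a5* was *Itga1*, the α1 subunit of a collagen IV binding integrin, at a root mean square distance of 0.041 on the log2 scale over the 4 libraries. *Itga1* stood at 3.20, 1.00, 3.84 and 1.09 RPKM. This likeness rests on the *Itga1* transcript with the longest gene body, since the one with the highest mean RPKM stayed within 1.5-fold after TGFB1.

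*Col18a1* (chr10:77052179-77166530, minus strand) was the least abundant of the 10 genes in both Ctrl libraries. It stood at 2.55 RPKM in *Hmga2*+/+ Ctrl, 4.50 RPKM in *Hmga2*+/+ TGFB1, 3.77 RPKM in *Hmga2*-/- Ctrl and 6.74 RPKM in *Hmga2*-/- TGFB1, from 709, 1279, 1059 and 1904 reads. Within each genotype TGFB1 was above Ctrl, and within each treatment *Hmga2*-/- was above *Hmga2*+/+. *Hmga2*+/+ MEF gave a log2 change of 0.82 [0.69, 0.96] after TGFB1, and *Hmga2*-/- MEF one of 0.84 [0.73, 0.95], which 6.84% and 7.44% of other genes reached. *Col18a1* has 3 annotated transcripts, which share reads, and their log2 changes ran from 0.81 to 0.99 in *Hmga2*+/+ and from 0.72 to 0.84 in *Hmga2*-/- MEF. The 250 bases before the second annotated start (chr10:77113706-77113955) held 1 CAGAC match and no GC box match, whereas those before the distal start held 3 GC box matches and no CAGAC.

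**Figure D2:**
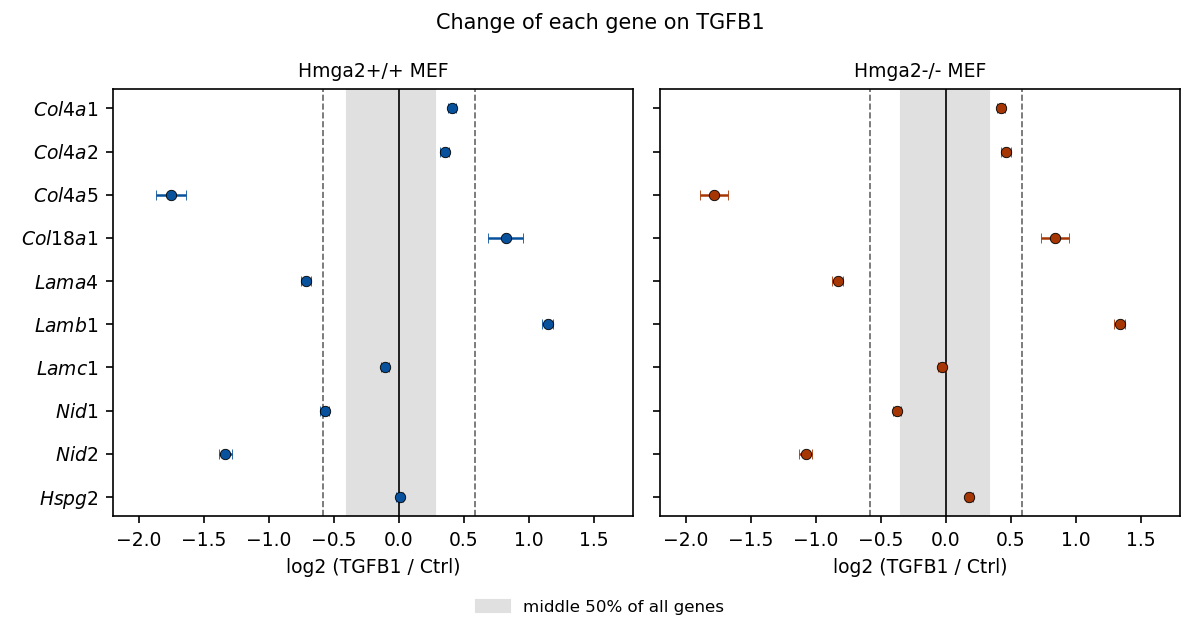
log2 of TGFB1 over Ctrl for each gene in *Hmga2*+/+ MEF (left) and *Hmga2*-/- MEF (right). Bars are 95% intervals for counting error, dashed lines mark 1.5-fold, and the grey band holds the middle 50% of 10679 genes; *Col4a5*, *Nid2* and *Lama4* lie left of the lower line and *Lamb1* and *Col18a1* right of the upper line in both panels.

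The laminin chains moved in opposite directions. *Lamb1* (chr12:31265294-31329639, plus strand) stood at 20.4 RPKM in *Hmga2*+/+ Ctrl, 45.1 RPKM in *Hmga2*+/+ TGFB1, 17.6 RPKM in *Hmga2*-/- Ctrl and 44.5 RPKM in *Hmga2*-/- TGFB1. Both TGFB1 libraries were more than 2-fold above both Ctrl libraries. This is a log2 change of 1.15 [1.10, 1.19] for *Hmga2*+/+ and of 1.34 [1.29, 1.38] for *Hmga2*-/- MEF, reached by 3.70% and 2.89% of the other genes. Over its 4 annotated transcripts the log2 changes ran from 1.08 to 1.37 and from 1.34 to 1.39.

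*Lama4* (chr10:38965515-39110188, plus strand), whose α4 chain is found in membranes of vessels, muscle and fat, stood at 38.4 RPKM in *Hmga2*+/+ Ctrl, 23.4 RPKM in *Hmga2*+/+ TGFB1, 38.0 RPKM in *Hmga2*-/- Ctrl and 21.3 RPKM in *Hmga2*-/- TGFB1. The Ctrl libraries were close to each other and both TGFB1 libraries were lower. This is a log2 change of -0.71 [-0.76, -0.67] for *Hmga2*+/+ and of -0.83 [-0.88, -0.79] for *Hmga2*-/- MEF, with 5 annotated transcripts between -0.81 and -0.71 and between -0.95 and -0.83. *Lamc1* (chr1:153218922-153332786, minus strand), the γ1 chain that most laminins share, stood at 42.4, 39.5, 37.5 and 36.7 RPKM in the same order of libraries. Its log2 changes after TGFB1 were -0.10 [-0.13, -0.07] for *Hmga2*+/+ and -0.03 [-0.06, 0.0027] for *Hmga2*-/- MEF, and the latter interval held 0.

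The α4, β1 and γ1 chains can form 1 trimer, and the mix of their transcripts changed. In *Hmga2*+/+ MEF *Lamb1* made up 20.1% of the summed RPKM of the 3 genes in Ctrl and 41.8% after TGFB1, while *Lama4* went from 37.9% to 21.7% and *Lamc1* from 42.0% to 36.6%. In *Hmga2*-/- MEF *Lamb1* went from 18.9% to 43.4%, *Lama4* from 40.8% to 20.8% and *Lamc1* from 40.3% to 35.8%. *Lamb1* was thus the lowest of the 3 chains in both Ctrl libraries and the highest in both TGFB1 libraries. The ratio of *Lamb1* to *Lamc1* went from 0.480 to 1.14 in *Hmga2*+/+ and from 0.469 to 1.21 in *Hmga2*-/- MEF.

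*Lamb2*, which codes for the β2 chain that can take the place of β1, stood at 57.1 RPKM in *Hmga2*+/+ Ctrl, 36.8 RPKM in *Hmga2*+/+ TGFB1, 56.6 RPKM in *Hmga2*-/- Ctrl and 40.9 RPKM in *Hmga2*-/- TGFB1. It fell by 0.63 on the log2 scale in *Hmga2*+/+ MEF, and its log2 change of -0.47 in *Hmga2*-/- MEF stayed within the limit. The ratio of *Lamb1* to *Lamb2* was 0.357 [0.347, 0.367] in *Hmga2*+/+ Ctrl and 1.22 [1.19, 1.25] in *Hmga2*+/+ TGFB1. In *Hmga2*-/- MEF it went from 0.311 to 1.09 [1.06, 1.11]. The sum of both β chain genes was 77.5, 81.9, 74.2 and 85.4 RPKM. Which β chain gene was higher after TGFB1 depended on the transcript taken for *Lamb1*, since the median over its transcripts gave ratios of 0.973 and 0.844 after TGFB1, from 0.268 and 0.241 in Ctrl. With that median *Lamb1* also stayed below *Lamc1* after TGFB1.

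**Figure D3:**
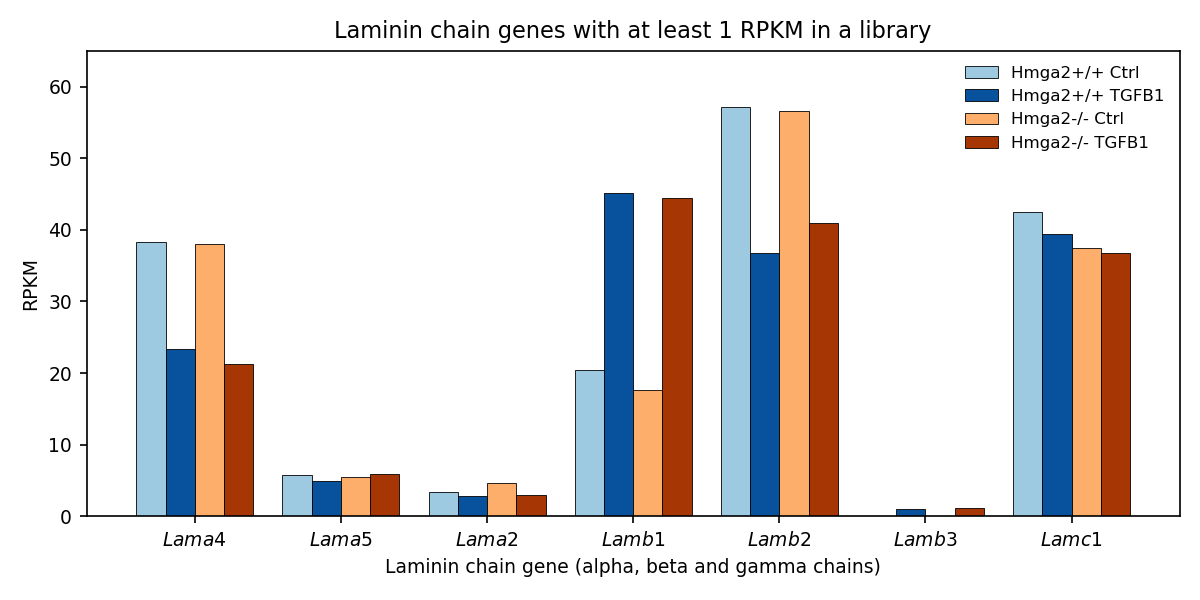
RPKM of each laminin chain gene that reached 1 RPKM in a library, with 1 bar for each library and no error bar, since each condition has 1 library. *Lamb1* goes from 20.4 to 45.1 RPKM and *Lamb2* from 57.1 to 36.8 RPKM in *Hmga2*+/+ MEF, and *Lama4* falls beside them.

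Of the nidogens, *Nid2* fell and *Nid1* stayed just within the limit. *Nid2* (chr14:19751257-19811787, plus strand) stood at 36.3 RPKM in *Hmga2*+/+ Ctrl, 14.4 RPKM in *Hmga2*+/+ TGFB1, 33.5 RPKM in *Hmga2*-/- Ctrl and 15.8 RPKM in *Hmga2*-/- TGFB1. The TGFB1 libraries were both below 16 RPKM and the Ctrl libraries both above 33 RPKM. *Hmga2*+/+ MEF gave a log2 change of -1.33 [-1.39, -1.28] and *Hmga2*-/- MEF one of -1.08 [-1.13, -1.03], and 3.51% and 5.68% of the other genes changed downwards as much.

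*Nid1* (chr13:13437602-13512275, plus strand) was the most abundant of the 10 genes in both Ctrl libraries. It stood at 52.4 RPKM in *Hmga2*+/+ Ctrl, 35.2 RPKM in *Hmga2*+/+ TGFB1, 53.6 RPKM in *Hmga2*-/- Ctrl and 41.4 RPKM in *Hmga2*-/- TGFB1. Its log2 change was -0.57 [-0.61, -0.54] in *Hmga2*+/+ MEF, which is 1.49-fold lower and just inside the limit, and -0.37 [-0.41, -0.34] in *Hmga2*-/- MEF. The ratio of *Nid1* to *Nid2* went from 1.44 to 2.45 in *Hmga2*+/+ and from 1.60 to 2.61 in *Hmga2*-/- MEF. Together the nidogens went from 88.7 to 49.6 RPKM and from 87.1 to 57.2 RPKM.

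*Hspg2* (chr4:137468803-137570630, plus strand), with perlecan as its product, was the steadiest gene of the group in *Hmga2*+/+ MEF. It stood at 31.7, 31.8, 28.8 and 32.6 RPKM in *Hmga2*+/+ Ctrl, *Hmga2*+/+ TGFB1, *Hmga2*-/- Ctrl and *Hmga2*-/- TGFB1, from between 22775 and 25942 reads. Its log2 change was 0.0063 [-0.02, 0.03] in *Hmga2*+/+ MEF, with a sign that changed with the scaling of the libraries, and 0.18 [0.15, 0.20] in *Hmga2*-/- MEF. Its promoter window held 5 GC box matches, more than any of the other windows read.

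The order of levels changed with treatment more than with genotype. In *Hmga2*+/+ Ctrl the order from the top was *Nid1*, *Lamc1*, *Col4a1*, *Lama4*, *Nid2*, *Hspg2*, *Col4a2*, *Lamb1*, *Col4a5* and *Col18a1*. In *Hmga2*-/- Ctrl it differed only in that *Col4a1* and *Lama4* stood before *Lamc1*, and these 3 neighbours, at 38.7, 38.0 and 37.5 RPKM, did not differ in turn beyond counting error. After TGFB1 *Col4a1* and *Lamb1* led in both genotypes, *Lamb1* by its transcript with the longest gene body and not by the median over its transcripts, and *Col18a1* stood above *Col4a5* at the lower end. The genotypes differed here too, since *Nid1* held place 5 in *Hmga2*+/+ TGFB1 and place 3 in *Hmga2*-/- TGFB1, and *Lamc1* places 3 and 5. The ratio of *Nid1* to *Lamc1* was 0.893 [0.872, 0.914] in *Hmga2*+/+ TGFB1 and 1.13 [1.10, 1.15] in *Hmga2*-/- TGFB1. In *Hmga2*-/- TGFB1 *Col4a2* and *Lamc1*, at 37.3 and 36.7 RPKM, did not differ beyond counting error. Each of the other neighbouring pairs did. In *Hmga2*+/+ Ctrl, 95.6% of the genes tested had a lower level than *Nid1*, and 18.8% had a lower level than *Col18a1*. The summed RPKM of the 10 genes was 300.5, 286.7, 287.0 and 290.7.

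Between the genotypes, no gene of the 10 passed 1.5-fold in either treatment. In Ctrl, 0 of 10 were higher and 0 of 10 lower in *Hmga2*-/- MEF, beside 2.28% of all genes higher and 1.65% lower. After TGFB1, 0 of 10 were higher and 0 of 10 lower, beside 3.03% higher and 1.98% lower. The median log2 difference of the 10 genes was -0.07 in Ctrl, beside -0.02 over all genes, and 0.04 after TGFB1, beside 0.04. These comparisons share their libraries with those of TGFB1 against Ctrl.

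*Col18a1* came nearest to the limit, at 1.48-fold higher in *Hmga2*-/- than in *Hmga2*+/+ Ctrl and 1.498-fold higher after TGFB1. Its log2 differences were 0.57 [0.43, 0.71] and 0.58 [0.48, 0.69], reached by 2.43% and 3.04% of the other genes. *Col4a5* followed, with log2 differences of 0.27 [0.19, 0.34] and 0.24 [0.10, 0.38]. *Lamb1* was at -0.21 [-0.26, -0.16] in Ctrl and -0.02 [-0.05, 0.01] after TGFB1, and *Nid1* at 0.03 [0.0040, 0.06] and 0.23 [0.20, 0.27]. The 6 others lay between -0.18 and -0.01 in Ctrl and between -0.13 and 0.14 after TGFB1.

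**Figure D4:**
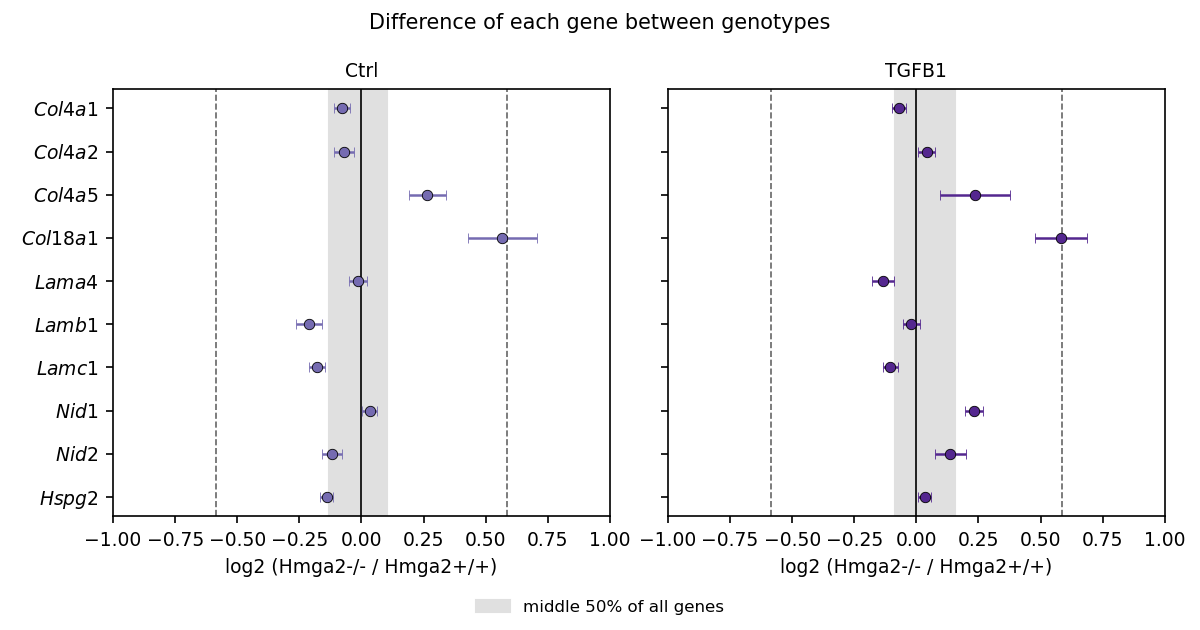
log2 of *Hmga2*-/- over *Hmga2*+/+ for each gene in Ctrl (left) and after TGFB1 (right), with 95% intervals for counting error, dashed lines at 1.5-fold and a grey band for the middle 50% of 10679 genes. No gene lies outside the dashed lines, and *Col18a1* lies next to the upper line in both panels.

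The TGFB1 response of each gene had the same sign in both genotypes, although that of *Hspg2* in *Hmga2*+/+ MEF changed sign with the scaling. The log2 response in *Hmga2*-/- minus that in *Hmga2*+/+ MEF was 0.25 [0.18, 0.33] for *Nid2*, 0.20 [0.15, 0.24] for *Nid1*, 0.19 [0.13, 0.25] for *Lamb1* and 0.17 [0.14, 0.21] for *Hspg2*. Under other scalings of the libraries these differences were smaller, near 0.20 for *Nid2*, 0.14 for *Nid1*, 0.14 for *Lamb1* and 0.12 for *Hspg2*. That of *Lamb1* was 0.098 with its transcript of highest mean RPKM, and 1 of its 4 transcripts went the other way, with log2 changes of 1.37 in *Hmga2*+/+ and 1.35 in *Hmga2*-/- MEF. For *Lama4* it was -0.12 [-0.18, -0.06], and it ranged from -0.18 to -0.07 over the alternatives. The difference was 0.11 [0.06, 0.16] for *Col4a2* and 0.08 [0.03, 0.12] for *Lamc1*, and under either other scaling 0.06 and 0.02. For *Col4a1* (0.01 [-0.03, 0.05]), *Col4a5* (-0.03 [-0.19, 0.13]) and *Col18a1* (0.02 [-0.15, 0.19]) the interval held 0. All these differences are smaller than 1.5-fold, and how far such a response varies between cultures was not measured.

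The wider basement membrane list was as mixed. Of 26 other components, 14 passed 1 RPKM in a library, *Lamb3* and *Smoc1* only after TGFB1. In *Hmga2*+/+ MEF 3 of these 14 were higher and 4 were lower after TGFB1, and in *Hmga2*-/- MEF 5 were higher and 4 were lower. *Lamb3*, at 0.033 and 0.059 RPKM in Ctrl, was among the higher genes in both genotypes, and the filter favours counting it so. *Smoc1* was among the higher genes in *Hmga2*-/- MEF alone, where it stayed below 1 RPKM. Over all genes the shares were 11.5% and 16.6% in *Hmga2*+/+, and 13.1% and 15.0% in *Hmga2*-/- MEF. The median log2 change of the 14 was -0.15 and -0.10, beside -0.05 and 0.01 over all genes. With no filter on low values, 9 of the 26 were higher and 7 lower in *Hmga2*+/+ MEF, and 8 were higher and 12 lower in *Hmga2*-/- MEF. Without the filter the shares over all genes were 11.6% and 19.1% in *Hmga2*+/+, and 13.0% and 18.3% in *Hmga2*-/- MEF. Some of these added calls rest on few reads. *Col4a3* had 0 and 3 reads in *Hmga2*+/+ Ctrl and TGFB1, and *Frem2* had 6 and 0 reads in *Hmga2*-/- Ctrl and TGFB1. The calcium-binding matrix protein gene *Smoc2* stood at 5.98, 41.8, 7.45 and 53.0 RPKM, with log2 changes of 2.80 and 2.83. *Fbln2*, which codes for the laminin- and nidogen-binding fibulin-2, stood at 76.4, 347, 114 and 461 RPKM, with log2 changes of 2.18 and 2.02. *Fbln1*, its relative, stood at 27.0, 10.53, 22.7 and 10.7 RPKM and fell by 1.36 and 1.09 on the log2 scale. *Lamb2* was also among the lower genes in *Hmga2*+/+ MEF, as given above. *Hmcn1*, a large matrix protein gene, fell by 2.29 and 2.97 on the log2 scale, and *Npnt*, the ligand of an integrin, fell by 2.28 and 1.90, with levels under 1 RPKM in 1 of the TGFB1 libraries each. *Lama2*, the α2 chain, fell by 0.66 in *Hmga2*-/- MEF and had a log2 change of -0.26 in *Hmga2*+/+ MEF. *Ntn4*, a netrin that binds laminin γ1, stood at 1.65, 2.18, 3.46 and 5.62 RPKM and was higher in *Hmga2*-/- MEF by a log2 difference of 1.07 in Ctrl and 1.37 after TGFB1. *Hmcn1* was lower in *Hmga2*-/- MEF after TGFB1, by a log2 difference of -0.80 from 1405 and 802 reads, and was not called with a pseudocount of 1 RPKM. *Ntn4* also rose after TGFB1 in *Hmga2*-/- MEF, by 0.70 on the log2 scale.

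Of 11 receptors of basement membrane proteins, 10 passed the filter, and 5 of them were higher and 1 was lower after TGFB1 in each genotype. With a pseudocount of 1 RPKM, or with the 2-fold limit, 3 were higher in *Hmga2*+/+ MEF. With that pseudocount 8.94% of all genes were higher in *Hmga2*+/+ MEF. Over all alternatives of the processing, the 2-fold limit among them, the lowest such share was 4.79%. The median log2 change of the 10 receptors was 0.46 and 0.38, beside -0.05 and 0.01 over all genes, of which 11.5% and 13.1% were higher and 16.6% and 15.0% lower. *Itga2* (0.137, 2.098, 0.144 and 1.875 RPKM) and *Itgb4* (0.574, 1.289, 0.677 and 1.97 RPKM) passed the filter only through the TGFB1 libraries. The filter thus favours counting these genes as higher. *Itgb1*, the β1 subunit common to laminin- and collagen-binding integrins, stood at 155, 285, 160 and 340 RPKM, with log2 changes of 0.88 and 1.09. *Itga6*, the α6 subunit of laminin receptors, stood at 2.48, 8.32, 4.00 and 10.1 RPKM, with log2 changes of 1.75 and 1.34. Its log2 difference between the genotypes was 0.69 in Ctrl, a call that was lost with a pseudocount of 1 RPKM. *Itga7*, another laminin-binding subunit, rose by 0.81 and 0.63 on the log2 scale, from 0.979 RPKM in *Hmga2*+/+ Ctrl. *Itga1* was the lower gene, with log2 changes of -1.68 and -1.81, for the transcript with the longest gene body. *Itgb4*, the partner of the α6 subunit in hemidesmosomes, stood at 1.29 and 1.97 RPKM after TGFB1 and was higher in *Hmga2*-/- MEF by 0.61 on the log2 scale, a call that was lost with either pseudocount, either other scaling and the transcript of highest mean RPKM.

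All 12 genes of assembly, modification and crosslinking passed the filter, and 3 were higher and 1 was lower in *Hmga2*+/+ MEF. *Plod3*, a lysyl hydroxylase with glycosyltransferase activity on collagen IV, stood at 13.1, 22.0, 13.0 and 25.6 RPKM, with log2 changes of 0.75 and 0.98. *P4ha1*, a prolyl 4-hydroxylase subunit, had log2 changes of 0.64 and 0.96, and *Loxl2*, a lysyl oxidase that crosslinks collagen IV, of 0.61 and 1.12. In *Hmga2*-/- MEF 5 were higher and 1 was lower, with *P4ha2* at a log2 change of 0.69 and *P4hb* at 0.65 beside the 3 above. The median log2 change of the 12 was 0.18 in *Hmga2*+/+ and 0.57 in *Hmga2*-/- MEF, beside -0.05 and 0.01 over all genes, of which 11.5% and 13.1% were higher and 16.6% and 15.0% lower. With the 2-fold limit 0 and 1 of the 12 were higher. Over all alternatives of the processing, that limit among them, the lowest shares of all genes higher were 4.79% and 5.44%. *P3h2*, a prolyl 3-hydroxylase that acts on collagen IV, stood at 7.69, 3.15, 7.13 and 2.18 RPKM and fell by 1.29 and 1.71 on the log2 scale. None of the 12 passed 1.5-fold between the genotypes.

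As a check of the labels, *Hmga2* had 14.8 and 40.7 RPKM in the *Hmga2*+/+ Ctrl and TGFB1 libraries and 0 reads in both *Hmga2*-/- libraries, which leaves a level under the floor of 3 reads. *Smad7*, an inhibitory SMAD that TGFB1 signalling is known to induce, stood at 6.40, 10.6, 6.67 and 14.6 RPKM in *Hmga2*+/+ Ctrl, *Hmga2*+/+ TGFB1, *Hmga2*-/- Ctrl and *Hmga2*-/- TGFB1. All 8 fibroblast markers were present, with a summed level of 1943 to 2344 RPKM. Since vessels and epithelia make many basement membrane proteins, their markers were read too. No epithelial marker of 6 reached 1 RPKM, and their sum was 0.443 to 1.21 RPKM. Of 6 endothelial markers, summed at 3.89 to 8.18 RPKM, *Kdr* and *Tek* reached 1 RPKM, and the defining markers *Pecam1* and *Cdh5* stayed at or below 0.048 RPKM. What *Kdr* and *Tek*, which differed between Ctrl and TGFB1, have to do with the levels of the 10 genes was not tested. Of 4 haematopoietic markers *Cd68* alone reached 1 RPKM, with a sum of 1.26 to 1.63 RPKM and *Hbb-bt* at 0. The 3 Schwann cell markers summed to 0.141 to 0.362 RPKM, and the 3 skeletal muscle markers were at 0 in all libraries. The 3 genes listed for parietal endoderm and early epithelium (*Sox17*, *Gata4* and *Afp*) summed to 0.041 to 0.103 RPKM.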

How the data were processed

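RNA-seq of 4 libraries of MEF was analysed. After trimming (Trimmomatic) and alignment to mm10 (HISAT2 2.1.0), the authors counted reads on the annotated strand of UCSC known genes with HOMER and deposited RPKM. By the table header exons were counted, and by the study's methods genes were. Whether duplicates were pooled is not stated. The transcript length was used as deposited by the authors, in bases, and 0 columns of per-sample values were left unused.

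A transcript took the name of the GENCODE vM21 gene that covered at least 50% of its span on its own strand, which 57708 of 63759 did. The transcript with the longest gene body stood for a gene. As in the study, 0 RPKM was set to 0.001 and the limit was 1.5-fold. Background shares are over 10679 protein-coding genes that reached 1 RPKM in any of the 4 libraries. Mapped reads were derived as the depth at which low RPKM values are whole reads. At the depth found, 100% of 922 to 951 values per library lay within 0.1 of a whole read. Exact 95% binomial intervals of ratios were computed from these reads, and those of response differences from Poisson errors by a normal approximation. For a transcript of 1 kb, 3 reads correspond to 0.0524 to 0.0534 RPKM. Genes of the 3 further lists are named where they passed 1.5-fold and had 1 RPKM or more in the 2 libraries compared, other than *Hmcn1*, *Npnt* and *Itga7* in the second genotype, *Col4a3*, *Col4a4* and *Col4a6*, and *Itga1* as the nearest profile, and not every such value is printed. *Itga2*, *Lamb3*, *Smoc1* and the Ctrl levels of *Itgb4* are also given, since these genes passed the filter only through TGFB1 libraries. The 10 genes and the lists were chosen with earlier results of these data known. Steps were tested on simulated data. Python 3.11.15, numpy 2.4.6, pandas 2.3.3, scipy 1.17.1 and matplotlib 3.10.9 were used. Alternatives changed the pseudocount, filter, scaling, transcript and threshold.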

Additional observations from a re-analysis of the deposited data

How the results depend on the processing

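In the 8 alternatives tried, no called gene of the 10 changed sign, and 61 of 64 counts of genes past the limit stayed within 1.5 times. That number says little of robustness. The counts between genotypes were 0 to begin with, and all 10 genes pass the filter, so leaving it out could change no count. A change from 3 genes to 2 or to 4 was within 1.5 times. With the 2-fold limit, 1 gene (*Lamb1*) in place of 2 was higher, and 2 in place of 3 were lower (without *Lama4*), after TGFB1 in each genotype. After TGFB1 in *Hmga2*+/+ MEF, the lowest shares of all genes over the alternatives were 4.79% higher and 6.87% lower. In *Hmga2*-/- MEF they were 5.44% and 6.61%. Under median-ratio scaling, 1 gene (*Col18a1*) in place of 0 was higher in *Hmga2*-/- Ctrl, and the median log2 change after TGFB1 in *Hmga2*+/+ MEF was -0.0072 in place of -0.049. Under upper-quartile scaling the medians were -0.017 in place of 0.075 after TGFB1 in *Hmga2*-/- MEF and -0.015 in place of 0.037 between the genotypes after TGFB1, and *Nid1* passed the limit in *Hmga2*+/+ MEF, at -0.61. The log2 change of *Hspg2* in *Hmga2*+/+ MEF was -0.03 under upper-quartile and 0.05 under median-ratio scaling. The genotype differences of *Lama4* in Ctrl and of *Col4a2* and *Hspg2* after TGFB1 also changed sign in an alternative. *Lamb1* ranged from 1.11 to 1.29 in *Hmga2*+/+ and from 1.25 to 1.39 in *Hmga2*-/- MEF, *Col4a5* from -1.79 to -1.38 and from -1.87 to -1.45, and *Col18a1* from 0.63 to 0.86 and from 0.70 to 0.84. Over all genes, 22 of 64 counts moved by over 1.5 times; without the filter 2403 genes were higher and 3956 lower after TGFB1 in *Hmga2*+/+ MEF (1227 and 1775 with it). Ratios between genes under other transcripts were added after the data were seen. No paired analysis was possible because the groups compared share fewer than 2 replicate numbers, and the genotypes are not replicates of the treatment. Of the differences between the TGFB1 responses, 13 of 70 values moved beyond the counting interval. With 1 library per condition the spread between cultures is unknown, and depth limits only the low genes.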

Other observations

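Laminin chain genes of low level differed in direction after TGFB1. *Lamb3* had 9 reads (0.033 RPKM) in *Hmga2*+/+ Ctrl, 299 reads (1.08 RPKM) in *Hmga2*+/+ TGFB1, 16 reads (0.059 RPKM) in *Hmga2*-/- Ctrl and 327 reads (1.19 RPKM) in *Hmga2*-/- TGFB1. *Lama3* had 156, 48, 119 and 29 reads in the same order, so that its TGFB1 libraries were the lower ones. *Lamc3* had 4, 35, 6 and 68 reads, and *Col15a1*, the nearest relative of *Col18a1*, had 26, 77, 10 and 145 reads. Apart from *Lamb3* after TGFB1, these genes stayed below 1 RPKM in all libraries, and each condition has 1 library. The endothelial marker genes *Kdr* and *Tek* went in opposite directions after TGFB1, with *Kdr* at 1.11, 4.46, 1.46 and 7.39 RPKM and *Tek* at 2.75, 0.330, 5.65 and 0.686 RPKM. These genes were chosen after their values were seen.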
